A study of Homo sapiens with 48 samples.

Results

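Of the 59855 H3K27ac peaks called in vehicle-treated L3.6pl cells on chromosomes 1 to 22 and X, 3741 were called again at 6 h of both TNFa and TWEAK but in neither list at 30 min. That is 6.25% of the vehicle peaks, with a 95% interval of 6.06 to 6.45%. A vehicle peak counted as called in another list when the 2 shared at least 1 bp. The 3741 regions were thus chosen by their measured H3K27ac calls in 5 lists, and everything the calls fix (the absence at 30 min, the presence at 6 h, fold enrichment and length) is given as a description, with no test.

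L3.6pl is a human pancreatic ductal adenocarcinoma (PDAC) cell line. The series holds 48 ChIP-seq samples in 16 conditions of 3 replicates each: H3K27ac, RELA and RELB in cells given vehicle (PBS, duration not in the labels), TNFa for 30 min or 6 h, or TWEAK for 30 min or 6 h, and FOSL1 in vehicle alone. Each condition has 1 deposited peak list called on pooled replicates, so no value below has a spread between replicates, and the number of reads behind each list is unknown. For the RELA list at 30 min of TNFa, the peak names leave open whether all 3 replicates were pooled. All values come from a single cell line, and nothing in the labels says whether replicates were separate cultures. A vehicle peak lay within 1000 bp of the start of 6 of 6 epithelial marker genes (EPCAM, CDH1, KRT7, KRT8, KRT18 and KRT19) and of 3 of 13 genes of other cell types (CD68, PECAM1 and COL1A1).

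Acetylation of lysine 27 on histone H3 is deposited by the coactivators p300 and CBP and marks active promoters and enhancers. TNFa engages the canonical NF-κB pathway, in which RELA enters the nucleus, and TWEAK can engage the noncanonical pathway, which frees RELB. FOSL1 (FRA-1) is a FOS-family subunit of AP-1, a leucine zipper factor that binds many enhancers of epithelial cancer cells at TGACTCA or its reverse complement TGAGTCA.

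Of FOSL1, RELA and RELB, FOSL1 overlapped these regions most often (40.8%). It was also the most frequent over all vehicle peaks, at a higher share (54.4%). The 3 regions with the highest FOSL1 fold enrichment show how differently a strong FOSL1 peak can sit in sequence. Each line gives the 200 bp around the FOSL1 summit on the plus strand of hg38, in lower case with every AP-1 motif in capitals. The window beside SPATC1L (chr21:46184493-46184692) holds 0 motifs and is a tandem repeat that is 100% identical to itself at a shift of 53 bp. The window in an intron of ERC2 (chr3:56132297-56132496) holds 2 motifs of opposite orientation, and that in an intron of NPFFR2 (chr4:72112615-72112814) holds 5 motifs of the same orientation.
SPATC1L: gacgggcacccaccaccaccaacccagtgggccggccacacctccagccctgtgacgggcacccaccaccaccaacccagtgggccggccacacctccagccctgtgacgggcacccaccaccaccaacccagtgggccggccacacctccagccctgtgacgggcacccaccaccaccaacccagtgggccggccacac
ERC2: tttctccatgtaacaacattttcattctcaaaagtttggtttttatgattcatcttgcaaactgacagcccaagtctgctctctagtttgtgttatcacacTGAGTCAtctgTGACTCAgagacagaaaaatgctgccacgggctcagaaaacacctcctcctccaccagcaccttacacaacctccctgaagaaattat
NPFFR2: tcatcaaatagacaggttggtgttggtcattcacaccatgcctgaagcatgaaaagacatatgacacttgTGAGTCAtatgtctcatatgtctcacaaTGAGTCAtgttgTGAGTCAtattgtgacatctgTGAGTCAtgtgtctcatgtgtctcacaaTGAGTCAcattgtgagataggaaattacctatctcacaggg

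The 200 bp around the midpoints of the 3 regions with the highest vehicle fold enrichment are shown for contrast. They lie in an intron of CYRIA (chr2:16608898-16609097), near POLR3K (chr16:10241-10440) and near SOD2 (chr6:159595101-159595300), and hold 0 AP-1 motifs in each case.
CYRIA: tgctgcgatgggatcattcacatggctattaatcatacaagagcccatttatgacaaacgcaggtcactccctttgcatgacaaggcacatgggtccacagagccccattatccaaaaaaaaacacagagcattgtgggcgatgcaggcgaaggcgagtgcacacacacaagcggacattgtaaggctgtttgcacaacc
POLR3K: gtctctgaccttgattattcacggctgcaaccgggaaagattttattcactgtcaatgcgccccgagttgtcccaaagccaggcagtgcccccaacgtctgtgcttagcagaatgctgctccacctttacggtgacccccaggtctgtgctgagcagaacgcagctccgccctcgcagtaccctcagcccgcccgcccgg
SOD2: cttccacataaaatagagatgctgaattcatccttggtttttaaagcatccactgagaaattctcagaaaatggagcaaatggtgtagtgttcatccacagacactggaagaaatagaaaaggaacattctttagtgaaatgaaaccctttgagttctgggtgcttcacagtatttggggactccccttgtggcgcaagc

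Most vehicle peaks kept their call: 37377 of 59855 were called in all 5 H3K27ac lists and 4558 in none of the treated lists. The 3741 regions were the most frequent of the remaining patterns. The opposite pattern, called at 30 min of both ligands and at 6 h of neither, held 807 peaks. For each ligand alone, 9766 vehicle peaks were called at 6 h of TNFa and not at 30 min, against 2441 called at 30 min and not at 6 h, and for TWEAK the numbers were 6469 and 3808.

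**Figure D1:**
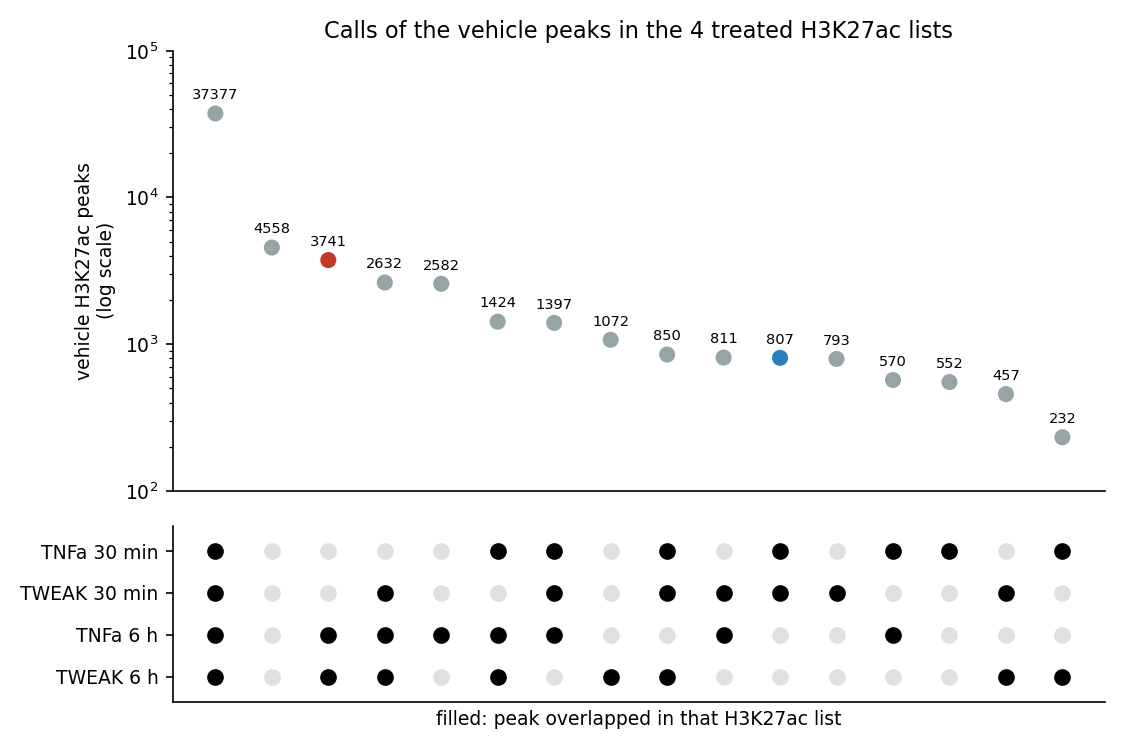
Number of vehicle H3K27ac peaks (log axis) for each combination of calls in the 4 treated lists, with a filled dot for a list that overlaps the peak. The red point is the 3741 peaks called at 6 h of both ligands and at 30 min of neither, and the blue point is the 807 peaks with the opposite pattern.

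The lists were not equally long. The TNFa 6 h list covered 55.5 Mb in 61154 peaks, as much as the vehicle list (55.5 Mb), whereas the lists at 30 min covered 45.1 Mb (TNFa, 53861 peaks) and 46.9 Mb (TWEAK, 55784 peaks). The TWEAK 6 h list covered 46.4 Mb in 57982 peaks, about as much as that at 30 min, yet it overlapped 79.8% of the vehicle peaks against 75.4%. With each treated list trimmed to its strongest peaks by −log10 q until all 4 covered 45.1 Mb, the rule gave 1940 regions and the opposite pattern 1924, where the deposited lists gave 3741 and 807. This trimming kept 39340 of the 61154 TNFa 6 h peaks, which then overlapped 38221 vehicle peaks, against 43209 for the TNFa 30 min list. With all 5 lists trimmed to the same number of peaks (53861), the rule gave 2792 regions and the opposite pattern 893. With all 5 trimmed to the same covered length the numbers were 1154 and 345. The excess over the opposite pattern therefore depended on how the lists were made equal, and how far list length follows sequencing depth was not tested.

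The regions were small and modestly enriched. Their fold enrichment in vehicle (the authors' ratio of ChIP over input signal for a peak) ranged from 1.28 to 7.72 with a median of 2.84, against 3.05 over all vehicle peaks, 3.42 for peaks called in all 5 lists and 2.57 for those called in vehicle alone. Their median length was 473 bp, with a range of 226 to 2161 bp, against 781 bp over all vehicle peaks and 1165 bp for peaks in all 5 lists. The median −log10 q, the authors' significance of a peak averaged over its length, was 3.33 against 5.74. Only 64 of the regions (1.71%) reached a −log10 q of 10, compared with 34.4% of all vehicle peaks.

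The share of vehicle peaks that followed the rule depended on length. It rose from 7.36% in the shortest decile to 11.8% in the fourth (460 to 597 bp) and fell to 0.134% in the longest, where 8 of 5983 peaks followed it. By fold enrichment it stayed between 6.68 and 8.64% in the lowest 7 deciles and fell to 0.535% in the highest. The opposite pattern was most frequent among the shortest peaks (4.36%) and was below the rule's share in every decile of either measure.

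**Figure D2:**
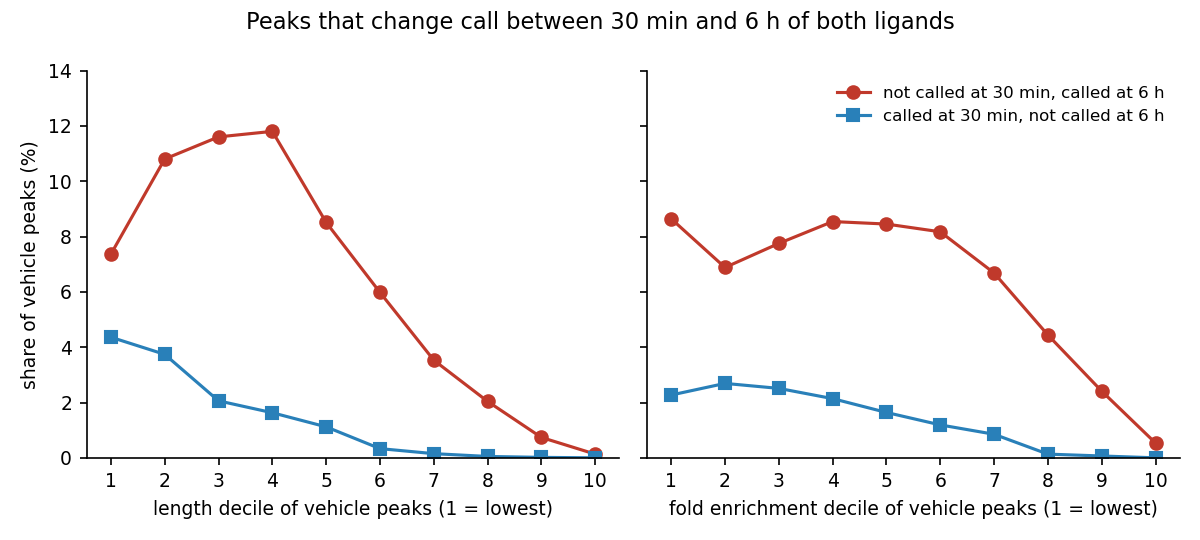
Share of vehicle H3K27ac peaks (percent) that were not called at 30 min and called at 6 h of both ligands (red circles) or the reverse (blue squares), by decile of length (left) and of vehicle fold enrichment (right). The red share peaks at 11.8% in the fourth length decile and is 0.134% in the tenth.

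At 6 h the overlapping peaks were about as enriched as in vehicle. The median fold enrichment was 2.85 in the TNFa list and 2.97 in the TWEAK list, and 51.8% and 63% of the regions lay above their vehicle value. These ratios are not normalized between lists, since the median over all peaks of a list was 2.99 for TNFa 6 h and 3.21 for TWEAK 6 h. The 6 h peaks covered a median of 86.8% of the region in TNFa and 69.8% in TWEAK, and 69.4% of the regions were covered over at least 50% of their length in both.

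The distance to acetylation called at 30 min varied widely. The nearest H3K27ac peak of either 30 min list lay a median of 9883 bp away, 724 regions (19.4%) had such a peak within 1000 bp and 1855 (49.6%) had none within 10000 bp. Of the 1392 regions with another vehicle peak within 1000 bp, 42.7% had a 30 min peak within that distance, against 5.49% of the others. Just inside the rule, 5 regions had a 30 min peak within 10 bp without overlap (median vehicle fold enrichment 2.88) and 8 shared at most 10 bp with a 6 h list (2.58). Just outside it, 6 peaks were lost to an overlap of at most 10 bp with the 30 min lists (2.69), and 9 had 6 h peaks within 10 bp of them in both lists but no overlap in at least 1 of the lists (2.83).

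Many regions were neighbours of other acetylated stretches. In 1392 of them (37.2%) another vehicle peak lay within 1000 bp, against 25.7% of all vehicle peaks. Of these 1392 close neighbours, 471 were themselves regions of the same pattern and 361 were called in all 5 lists. The nearest vehicle peak at any distance was of the same pattern for 18.3% of the regions, whereas it was of that pattern for 6.54% of all vehicle peaks. Regions that neighbour each other enter this share together and are not independent.

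The 10 strongest regions by vehicle fold enrichment all lay in the highest decile of all vehicle peaks (4.57 and above). The highest lay in an intron of CYRIA, which encodes a RAC1-binding regulator of actin, 56830 bp from its nearest annotated start (chr2:16608757-16609238). Its fold enrichment was 7.72 in vehicle, 4.88 at 6 h of TNFa and 5.36 at 6 h of TWEAK, and the nearest 30 min peaks were 9024 bp (TNFa) and 9071 bp (TWEAK) away. It was the highest of all in vehicle, the value by which these 10 were picked, and lower at 6 h of both ligands.

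The next region, at chr16:10132-10549, had 6.11 in vehicle, 4.44 at 6 h of TNFa and 6.55 at 6 h of TWEAK. It starts 131 bases after the first known base of chromosome 16, and POLR3K, a subunit gene of RNA polymerase III, is the nearest gene at 43267 bp. Sequence at chromosome ends has near copies on other chromosomes, and how reads with several matches were placed is not given in the sources used here. The region near SOD2 (chr6:159594969-159595433), the gene of mitochondrial superoxide dismutase and a known NF-κB target, lay 98027 bp from its start and had 5.98, 5.21 and 5.35 in vehicle, TNFa 6 h and TWEAK 6 h. It overlapped a FOSL1 peak of 12.6-fold and no RELA or RELB peak.

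The region 49887 bp from EHF (chr11:34692378-34692650), an ETS factor of epithelial cells, had 5.45 in vehicle, 4.22 at 6 h of TNFa and 3.99 at 6 h of TWEAK. That in an intron of SLC1A2 (chr11:35337502-35337866), a glutamate transporter gene, had 5.17, 3.77 and 4.63 in the same order. The region near MTRF1 (chr13:41285160-41285804), a mitochondrial release factor gene, had 5.12, 5.12 and 5.08 in vehicle, TNFa 6 h and TWEAK 6 h, and it carried a FOSL1 peak of 15.3-fold. The other members of the 10 lay near KLHL13 (5.77 in vehicle), RAB28 (5.5), VASH1 (5.32) and MTCP1 (5.11). None of the 10 overlapped a RELA or RELB peak, and 5 overlapped a FOSL1 peak.

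**Figure D3:**
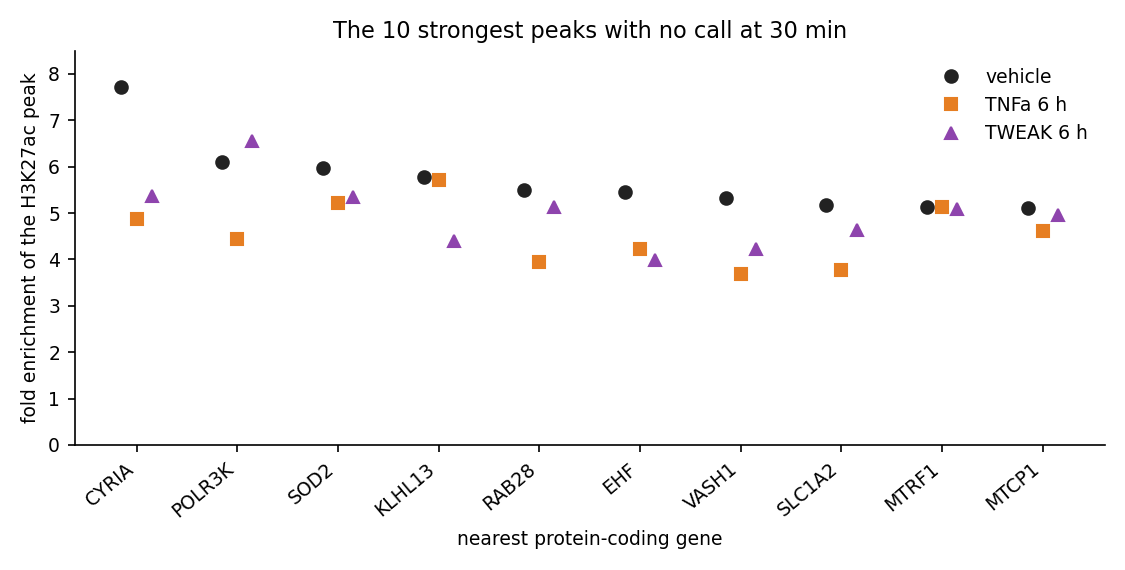
Fold enrichment of the H3K27ac peak in vehicle (circles), TNFa 6 h (squares) and TWEAK 6 h (triangles) at the 10 regions with the highest vehicle value, named by the nearest protein-coding gene. Vehicle runs from 7.72 at CYRIA to 5.11 at MTCP1, and the 30 min lists hold no overlapping peak at any of them.

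The longest region, of 2161 bp, was intergenic at chr16:51538065-51540225. Its fold enrichment was 2.86 in vehicle, 3.13 at 6 h of TNFa and 3.18 at 6 h of TWEAK, and the nearest 30 min peak was 16436 bp away. The next in length lay in an intron of OTUD7A (1933 bp), at the promoter of SIGLEC15 (1920 bp), and in intergenic sequence nearest to ACTL7B (1888 bp) and FEM1C (1852 bp), with vehicle values of 2.79 to 3.18. Of these 5, all but that at SIGLEC15 overlapped a FOSL1 peak.

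By annotation the regions were mostly distal. Of the 3741, 1829 (48.9%) were intergenic, 1519 (40.6%) intronic, 114 (3.05%) exonic and 279 (7.46%, interval 6.64 to 8.35%) promoters, taken as a midpoint within 1000 bp of a protein-coding transcription start. Promoters made up 23.1% of all vehicle peaks and 33.1% of those in all 5 lists, but 4.65% of those called in vehicle alone and 5.45% of the opposite pattern. Compared with all vehicle peaks of the same length decile, the promoter share was lower, with intervals apart, in 6 of 9 deciles. Compared with vehicle-only peaks it was higher with intervals apart in 2 of 6. The median distance to a protein-coding start was 41902 bp, against 20265 bp over all vehicle peaks.

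The 279 promoter regions belonged to 274 genes, of which 107 (39.1%) had another promoter peak that was called in all 5 lists. The strongest was at VASH1 (chr14:76761391-76761729), which encodes the tubulin carboxypeptidase vasohibin-1, with 5.32 in vehicle, 3.68 at 6 h of TNFa and 4.23 at 6 h of TWEAK. APBB1, an adaptor of the amyloid precursor protein, followed at 5.01 (3.59 and 3.2 at 6 h), then LDOC1 at 4.76 (3.62 and 4.18), DTNA, the gene of α-dystrobrevin, at 4.62 (3.75 and 4.5) and ZNF737, a zinc finger gene, at 4.51 (3.16 and 3.39). All 5 were lower at 6 h than in vehicle, the value they were picked by, so this order says nothing about the other regions. The nearest 30 min peak was at least 28489 bp away. None of the 5 overlapped FOSL1. Over the promoter regions as a whole FOSL1 overlapped 21.1% (16.5 to 26.4%), against 44.1% of the intergenic regions (41.8 to 46.4%). Among all vehicle peaks the order was the reverse, with FOSL1 at 60.4% of promoter peaks and 52.6% of those outside promoters. Within peaks called in all 5 lists the promoter share was the lower one, as in the regions, at 65% (64.2 to 65.9%) against 71% (70.4 to 71.5%). For vehicle-only peaks the shares were 15.6% and 15.5%, and for the opposite pattern 25% (13.2 to 40.3%) and 21.1% (18.3 to 24.2%).

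The shares of the regions on single chromosomes ranged from 2.6% of the vehicle peaks on chromosome 19 to 8.94% on X and 8.82% on chromosome 4, with a median of 6.19%. Their median GC content was 43.4%, against 47.4% over all vehicle peaks and 50% for those in all 5 lists, but 43.8% for vehicle-only peaks and 44.1% for the opposite pattern. Outside promoters the gap was smaller, at 42.9% for the regions and 45.1% for peaks in all 5 lists. Only 62 regions (1.66%) lay in tandem repeats, defined by a self-match of at least 0.4 in 1000 bp, against 4.6% of all vehicle peaks and 12.6% of the opposite pattern.

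A FOSL1 peak overlapped 1526 regions (40.8%, 39.2 to 42.4%), against 54.4% of all vehicle peaks, 69% of those in all 5 lists, 15.5% of those called in vehicle alone and 21.3% of the opposite pattern. The FOSL1 share grew with length, from 20.2% of all vehicle peaks in the shortest decile to 84.5% in the longest. In 9 length deciles with at least 20 of the regions, the interval of their FOSL1 share met that of all vehicle peaks in every decile (28.1% against 26% in the second, 47.9% against 49.3% in the fifth). Within deciles the share was above that of vehicle-only peaks in 6 of 6, with intervals apart in 5, and above the opposite pattern in 5 of 6, with intervals apart in 4. It was below that of peaks in all 5 lists, with intervals apart, in 5 of 9. By deciles of fold enrichment instead, the share was below that of all vehicle peaks with intervals apart in 7 of 10.

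**Figure D4:**
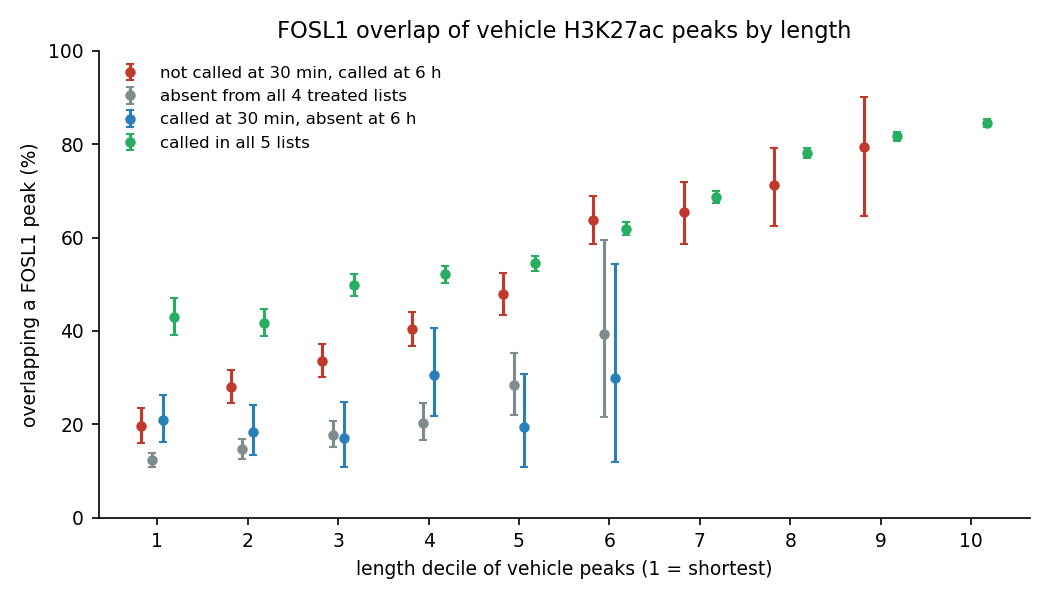
Share of vehicle H3K27ac peaks that overlap a FOSL1 peak (percent), by length decile, for the regions not called at 30 min and called at 6 h (red), peaks absent from all 4 treated lists (grey), the opposite pattern (blue) and peaks called in all 5 lists (green). Bars are exact 95% intervals of counting error, groups under 20 peaks are left out, and the red share rises from 19.6% to 79.5%.

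Regions with FOSL1 were longer (median 582 against 421 bp) and more enriched in vehicle (3.01 against 2.74) than those without. At 6 h the medians were 2.98 against 2.77 in TNFa and 3.08 against 2.9 in TWEAK, so the difference ran the same way in all 3 lists. The median FOSL1 fold enrichment was 6.81 at the regions, against 5.72 at all vehicle peaks with FOSL1 and 5.34 at vehicle-only peaks. Outside promoters the values were closer, at 6.84 for the regions, 6.48 for all vehicle peaks and 6.72 for peaks in all 5 lists. The FOSL1 summit lay inside the acetylated region in 48% (45.5 to 50.6%), compared with 42.2% (38.6 to 46%) for vehicle-only peaks and 80.6% for peaks in all 5 lists, whose median length is 296 and 1165 bp against 473 bp, and where it lay outside it was a median of 97 bp from the border. The 3 windows printed above are of this kind, with summits 161 bp (SPATC1L), 71 bp (ERC2) and 150 bp (NPFFR2) outside the acetylated region.

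The AP-1 motif was frequent under these summits. In the 200 bp around the summit it was found for 935 of 1526 regions (61.3%, 58.8 to 63.7%), against 37.7% of all vehicle peaks with FOSL1 and 34.5% (33.9 to 35%) of those in all 5 lists. It was 53.5% (49.8 to 57.3%) for vehicle-only peaks and 19.8% (14.1 to 26.5%) for the opposite pattern. Leaving promoters out, the shares were 62.5% (60 to 65%) for the regions, 43.8% (43.1 to 44.6%) for peaks in all 5 lists and 54.1% (50.2 to 57.9%) for vehicle-only peaks. With the FOSL1 peaks outside promoters split into 4 equal bins of FOSL1 fold enrichment, the regions were again higher than peaks in all 5 lists. The shares were 35.8% against 12.6% in the lowest bin and 53.9% against 26.6% in the second. They were 68.5% against 53.4% in the third and 83.4% against 77.5% in the highest, and the intervals were apart in each. Vehicle-only peaks were not split this way. Their FOSL1 peaks outside promoters were weaker (median fold enrichment 5.34 against 6.84 for the regions). Around the midpoints of the regions, in 300 bp, the motif was found in 14.8% (13.7 to 16%), against 12.6% of all vehicle peaks, and the NF-κB consensus in 7.73% (6.89 to 8.63%), against 9.72%. A match of letters is no proof of binding.

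By FOSL1 fold enrichment the regions at SPATC1L (29.1), ERC2 (26.1), NPFFR2 (24.9), MYO3A (24) and FGFRL1 (23.6) came highest. The FOSL1 summit at SPATC1L lay in the tandem repeat printed above, and how reads were placed there is not known. Around the midpoint of that region the self-match was 0.35, below the 0.4 that defined tandem repeats, so it was not counted among them. The region at SPATC1L (chr21:46184754-46185406) lay 604 bp from its start and had an H3K27ac fold enrichment of 3.47 in vehicle, 3.88 at 6 h of TNFa and 4.38 at 6 h of TWEAK. That in ERC2 (chr3:56131956-56132326), a gene of the presynaptic active zone, had 3.92, 3.45 and 4.23, and its nearest 30 min peak was 162408 bp away. The region in NPFFR2 (chr4:72111885-72112565), a neuropeptide receptor gene, had 2.52, 3.35 and 3.4. At NPFFR2 a TNFa 30 min peak lay 268 bp from the region, while the nearest TWEAK 30 min peak was 130799 bp away. At the region near MYO3A the closest was a TWEAK 30 min peak, at 532 bp.

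RELA and RELB were rare at the regions. A RELA peak of TNFa at 30 min overlapped 23 of them (0.615%, 0.39 to 0.921%), where it overlapped 9.58% of all vehicle peaks and 13.6% of those in all 5 lists. The share was below that of all vehicle peaks, with intervals apart, in 9 of 9 length deciles and 10 of 10 deciles of fold enrichment. It was 0.768% (0.535 to 1.07%) at vehicle-only peaks, so the low share was common to both patterns without a 30 min call. This RELA list and the H3K27ac list at 30 min of TNFa come from the same treatment, and the rule leaves out every peak with a 30 min H3K27ac call.

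In the other 9 lists the shares were again below those of all vehicle peaks, which follow in brackets. RELA overlapped 0.294% of the regions in vehicle (2.4% of all vehicle peaks), 1.04% at 6 h of TNFa (5.77%), 0.321% in the TWEAK list of 30 min (2.63%) and 0.374% in that of 6 h (2.57%). RELB overlapped 0.374% in vehicle (2.63%), 0.267% at 30 min of TNFa (2.21%), 0.267% at 6 h of TNFa (2.59%), 0.241% in the TWEAK list of 30 min (1.99%) and 0.695% in that of 6 h (3.68%). In total 49 regions (1.31%) met any of the 10 lists, against 10.9% of all vehicle peaks.

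**Figure D5:**
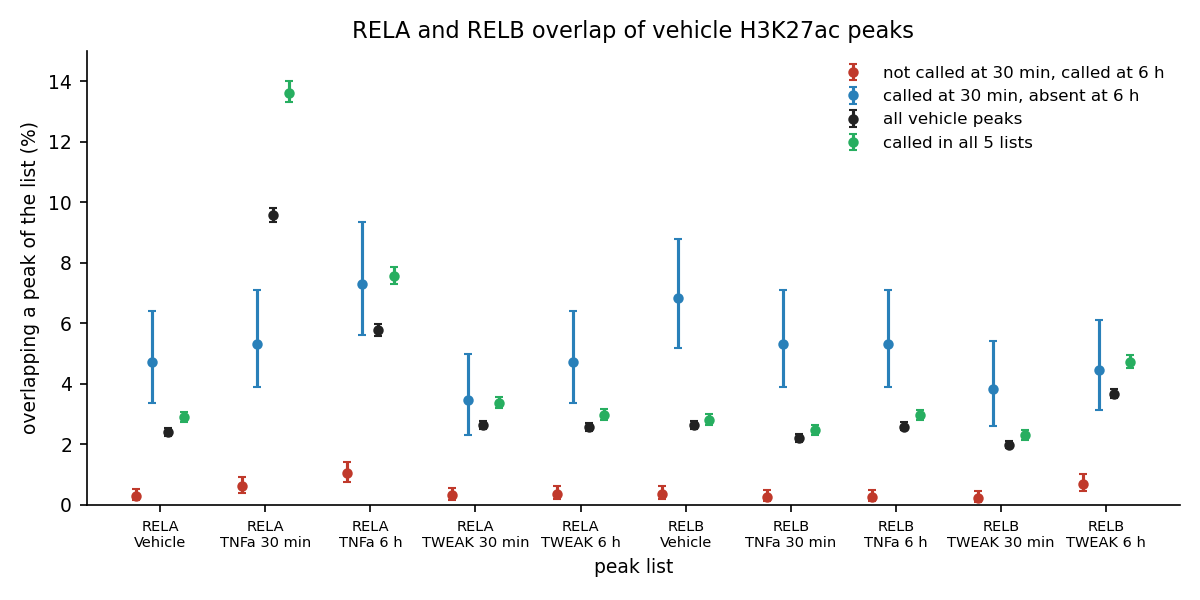
Share of vehicle H3K27ac peaks that overlap a peak of each RELA and RELB list (percent, bars are exact 95% intervals of counting error), for the regions not called at 30 min and called at 6 h (red), the opposite pattern (blue), all vehicle peaks (black) and peaks called in all 5 lists (green). The red shares, between 0.241% and 1.04%, are the lowest of the groups shown in every list. Vehicle-only peaks are not shown. Their shares were below the red ones for RELA at 6 h of TNFa (0.68%) and RELB at 6 h of TWEAK (0.483%), and above them in the other lists.

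Tandem repeats made up much of this small overlap. Of the 23 regions with RELA at 30 min of TNFa, 12 lay in tandem repeats and 11 did not. Outside tandem repeats, RELA in vehicle and RELB in vehicle overlapped 0 of 3679 regions each, which allows shares of up to 0.1%. RELA at 6 h of TNFa overlapped 25 of these 3679 regions (0.68%, 0.44 to 1%), against 3.61% of all vehicle peaks outside tandem repeats, and RELB at 6 h of TWEAK 15 (0.408%, 0.228 to 0.672%), against 1.74%. The rule used the 6 h H3K27ac calls of the same treatments. Outside tandem repeats, vehicle-only peaks had 0.0457% (0.00554 to 0.165%) for RELB at 6 h of TWEAK, an interval apart from that of the regions. For RELA at 6 h of TNFa they had 0.0686% (0.0141 to 0.2%), also apart. For RELA at 30 min of TNFa the intervals overlapped, with 0.299% (0.149 to 0.534%) at the regions and 0.251% (0.126 to 0.449%) at vehicle-only peaks. With tandem repeats kept, RELB at 6 h of TWEAK had 0.695% (0.454 to 1.02%) at the regions and 0.483% (0.303 to 0.73%) at vehicle-only peaks. Those intervals overlapped, and the intervals of the 2 groups overlapped in 6 of 6 length deciles as well. For RELA at 6 h of TNFa, the shares with tandem repeats kept were 1.04% (0.742 to 1.42%) and 0.68% (0.463 to 0.964%). These intervals overlapped too, and this list was not compared by length decile. Among the 11 regions with RELA at 30 min of TNFa outside tandem repeats, chosen for naming after their values were seen, were regions 89917 bp from CPM (chr12:69052809-69053563; RELA 8.86-fold), a carboxypeptidase gene, and 84585 bp from TET2 (chr4:105060829-105061750; 6.44-fold), which encodes a 5-methylcytosine dioxygenase.

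Of 16374 protein-coding genes with a vehicle peak in the gene or within 10 kb of it, 2123 (13%) held at least 1 of the regions: 1750 held 1, 280 held 2 and 93 held 3 or more. Genes with a region were longer, with a median of 87 kb against 29.3 kb. COL4A6, a chain of basement membrane collagen, held 8 among 26 vehicle peaks, and the transcription factor gene NPAS3 held 8 of 25. PDE4D and PDE3A, both cyclic nucleotide phosphodiesterases, held 7 of 73 and 5 of 25. PDE3A was taken from 7 genes tied at 5 regions, as the gene with the most per 100 kb. The shortest of these genes, ANXA10 (95.2 kb), an annexin gene, held 6 of 11 (54.5%), the highest of them at 3.71-fold in vehicle.

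In 12 gene lists of 175 genes, 26 of the 167 genes with a vehicle peak held a region. Epithelial identity and junction genes (5 of 13) and genes of matrix, integrins and laminins (5 of 14) held them most often, but counted over peaks their shares were 5.43% and 6.67%, near the 6.25% of the whole list. Among the epithelial genes, TJP1, which encodes the tight junction protein ZO-1, had a region of 3.47 in vehicle, 3.8 at 6 h of TNFa and 3.42 at 6 h of TWEAK, and CDH1, the gene of E-cadherin, had an intronic region of 2.53, 2.48 and 3.04. LAMB3, a laminin-332 chain, held 2 of its 4 vehicle peaks as regions, the higher at 1.73, 1.75 and 1.76. The integrin genes ITGB4 and ITGA3 held 1 each, of 2.71 and 2.19 in vehicle.

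Of 16 genes of NF-κB subunits and feedback regulators 2 held a region (12.5%), near the 13% of all genes with a vehicle peak, and by peaks the share was 3.85%. The signalling adaptor gene TRAF1 had a region of 2.56 in vehicle, 3.61 at 6 h of TNFa and 3.17 at 6 h of TWEAK (chr9:120909726-120910617), higher at 6 h than in vehicle, and BIRC2, encoding the ubiquitin ligase cIAP1, had 2.33, 2.29 and 2.13. TRAF6 was the only holder among 13 TNF receptor signalling genes (2.22% by peaks), with 3.58, 3.86 and 2.99. The cytokine and chemokine list held 0 of its 29 vehicle peaks as regions, in 12 genes. Genes of this kind outside the list did hold regions, among them CXCL6 (2 of 3 vehicle peaks) and IL33 (1 of 2). The AP-1 list had BATF alone of 11 genes (3.32, 4.08 and 3.14), and the pancreatic lineage list HNF4A alone of 12 (2.84, 3.06 and 2.92). The acetylation list had 4 of 18, among them KAT2B, an acetyltransferase gene, at 2.82, 2.85 and 3.33.

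The YAP, TEAD and TGF-β list had 3 of 18, among them WWTR1 (2 regions, the higher at 1.96 in vehicle) and SMAD3 (2.1), and the EGFR and MAPK list had DUSP5 alone of 17 (1.78). For comparison, the housekeeping list had 2 of 12 (PGK1 and TUBA1B), and the list of other cell types had PDGFRB alone of 11 (3.22). By peaks, these 4 lists lay between 1.32% and 4.65%.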

How the data were processed

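ChIP-seq of H3K27ac, RELA, RELB and FOSL1 in L3.6pl cells gave 16 peak lists from 48 samples. Per the submitters' processing notes and the paper's methods, Bowtie2 2.5.0 aligned the reads to hg38, and the authors called peaks with MACS2 against input, with pooled replicates. The peak names of the RELA list at 30 min of TNFa leave open whether all 3 replicates were pooled. The MACS2 version and the use of a blacklist are not given in the sources used here. The deposited fold enrichment is the authors' ratio of ChIP over input for a peak. The deposited −log10 q is the authors' significance of a peak, averaged over the peak in the broad H3K27ac lists. The 16 deposited columns of −log10 p-values were not used.

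Peaks on chromosomes 1 to 22 and X were kept, which left out 1971 vehicle peaks on other sequences. Overlaps of at least 1 bp were computed with own code in Python 3.11.15 (numpy 2.4.6, pandas 2.3.3, scipy 1.17.1, pysam 0.24.0) after tests on simulated intervals. Annotation was GENCODE 44, and the reference was hg38, the build of the lists. Intervals are exact (Clopper-Pearson, 95%), cover counting error only and treat regions as units, which are not replicates. No test was run. Deciles are those of all vehicle peaks, and groups under 20 peaks were left out. Tandem repeats were found from the self-match of 1000 bp around a midpoint at shifts of up to 400 bp. No soft-masked reference was used here.

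The rule for the regions, the gene lists and the alternatives were chosen with earlier results of these data known. Named were the 10 regions with the highest vehicle fold enrichment, the 5 longest, the 5 strongest by FOSL1, the 5 strongest promoters, the 5 genes with the most regions (ties by regions per 100 kb) and up to 3 genes per list. Alternatives covered the overlap, q and fold minimums, list length, joining of peaks, peak length and promoter definition. Leaving out tandem repeats and trimming the lists to equal covered length were added after the data had been seen. Some genes of the lists are not reported here.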

Additional observations from a re-analysis of the deposited data

How the results depend on the processing

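No paired analysis was possible because each condition has 1 peak list, and for the same reason no replicate could be left out. Of 94 recomputed values, 35 stayed within 1.5 times the count or within the 95% interval of the reported value and 59 moved. The regions kept a lower RELA and promoter share than the vehicle peaks kept by the same setting wherever that share was computed. The number of regions fell to 2373 with a fold enrichment of at least 3, 1711 with vehicle peaks of at least 500 bp, 2187 with a vehicle −log10 q of at least 3, 1154 at equal covered length in all 5 lists and 1940 at equal covered length in the 4 treated lists.

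The FOSL1 share was 22.6% with the summit within 250 bp of the midpoint (33.7% of all vehicle peaks). It was 50.7% where a call needed 50% coverage, 60% with −log10 q of at least 3 in all lists (65.6% of the vehicle peaks kept), 66% with a fold enrichment of at least 3 (68.6%), 45.2% at equal list length, 51.5% with peaks joined, 53.6% for peaks of at least 500 bp (67.4%), 48.1% with a vehicle −log10 q of at least 3, and 56.7% and 48.5% at equal covered length in all 5 and in the 4 treated lists.

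The share with RELA at 30 min of TNFa was 0.926% with 50% coverage, 1.2% with −log10 q of at least 3 in all lists (11.7% of the vehicle peaks kept), 2.65% with a fold enrichment of at least 3 (12%), 0.351% for peaks of at least 500 bp, 0.26% at equal covered length in all 5 lists and 0.299% without tandem repeats (7.75%). The share with RELB at 6 h of TWEAK was 1.4% with −log10 q of at least 3 in all lists (4.27% of the vehicle peaks kept). It was 1.39% with a fold enrichment of at least 3 (4.72%) and 0.408% without tandem repeats (1.74%).

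The promoter share was 5.85% with calls within 1000 bp and 9.74% with 50% coverage. With −log10 q of at least 3 in all lists it was 10.9% (29.6% of the vehicle peaks kept). A fold enrichment of at least 3 gave 15% (33.6%). The share was 8.38% at equal list length, 6.46% with peaks joined and 8.82% with a vehicle −log10 q of at least 3. It was 8.93% at equal covered length in all 5 lists. A window of 2500 bp gave 11.4% (26.6% of all vehicle peaks) and the starts of all genes 14.9% (31%).

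In the order 50% coverage, −log10 q of at least 3 in all lists, fold enrichment of at least 3, equal list length, joined peaks, 500 bp, vehicle −log10 q of at least 3, equal covered length in all 5 and in the 4 treated lists, the median vehicle fold enrichment was 2.95, 3.2, 3.41, 2.94, 2.91, 2.94, 3.16, 3.31 and 2.95, and the median length was 580, 728, 839, 502, 627, 732, 500, 552 and 524 bp. With calls within 1000 bp the median length was 458 bp. The median GC content was 44.1% with 50% coverage, 44.5% with −log10 q of at least 3 in all lists, 45.6% with a fold enrichment of at least 3, 42% for peaks of at least 500 bp, 44% with a vehicle −log10 q of at least 3 and 43.9% at equal covered length in all 5 lists. Reads per library are unknown, so a missing call is not a measured loss of acetylation.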
